A study of Mus musculus with 56 samples.

Results

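The genes of glycolysis and of the hypoxia response were followed by RNA sequencing in mouse mammary tumor cell lines that carry different β-catenin alleles, before and after treatment with TGFβ or Wnt3a. The set was given as a list of 33 genes, which were matched by symbol to the 20314 genes of the deposited table, and all 33 were found. They comprise 21 glycolytic genes (glucose uptake, the enzymes from hexokinase to lactate dehydrogenase, the lactate exporter and 1 pyruvate dehydrogenase kinase) and 12 other genes of the hypoxia response. The rule for the list uses no measured value, but the list was drawn up with earlier results of these data known. Of the 33, 32 reached 1 CPM in at least 2 samples and entered the tests with 13754 genes in all, and Slc2a3 did not.

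Samples were 56 libraries of 7 lines, named by their β-catenin genotype as fl/fl, D164A/fl, D164A/-, ΔC/fl, ΔC/-, dm/fl and dm/-. All lines carry the MMTV-PyMT transgene, which drives the polyoma middle T oncogene in the mammary epithelium, on the FVB/N background. According to the methods, they were grown from tumors of the thoracic mammary glands of 12-week-old females, with fibroblasts removed by differential trypsinization. Floxed (fl) alleles were kept by infection with a control adenovirus expressing GFP, and the lines marked "-" lost the floxed allele after infection with adenoviral Cre and sorting for GFP. The D164A mutation abolishes the binding of β-catenin to the coactivators Bcl9 and Bcl9L. The sources used here do not explain ΔC and dm, and the names are used as the labels give them. Each line was cultured for 4 days in TGFβ at 2 ng/ml, for 3 days in Wnt3a at 100 ng/ml, and untreated beside each, with 2 replicates per condition. The line of each genotype cannot be told apart from its genotype, because no second line per genotype is labelled. The methods describe the replicates as biological duplicates. P-values measure the spread between such duplicates within a line, pooled for each gene over the 28 conditions of both experiments.

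Glycolysis converts glucose to pyruvate, and lactate dehydrogenase and the monocarboxylate transporter Slc16a3 (MCT4) dispose of it as lactate. When oxygen is low, prolyl hydroxylases of the Egln family stop marking the HIF-α proteins for destruction, and stabilised HIF with its partner Arnt raises most glycolytic genes together with genes for angiogenesis (Vegfa), pH control (Car9), mitophagy (Bnip3) and collagen hydroxylation (P4ha1 and P4ha2). Hif1a is regulated mainly as a protein, which RNA does not report. TGFβ drives an epithelial-mesenchymal transition in many mammary tumor cells, and Wnt3a activates transcription through β-catenin.

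HIF binds DNA at a core of 5 bases, ACGTG or GCGTG. RefSeq promoters (GRCm38.p6, 250 bases before to 50 after the transcription start) were available for 31 of the 33 genes, with 45 starts, and 36 of the 45 (80.0%) held at least 1 core on either strand. Among all 32851 promoters the share was 43.8%. Member promoters were also richer in GC, with a median of 62.3% against 52.7%. At 60% GC or more, 92.3% of the member promoters and 69.2% of all promoters held a core, and below 60% GC the shares were 63.2% and 33.1%. Glycolytic genes had a core at 25 of 33 starts (75.8%) and the other hypoxia genes at 11 of 12 (91.7%). A match of 5 letters is a description of the sequence and not a bound site. The promoters of P4ha1, P4ha2, Hk2 and Slc16a3, which rose on average with TGFβ, and of Adm and Egln3, which fell on average and were near or at 0 reads in some lines, are given here 5′ to 3′. Capitals mark the cores, where CACGT and CACGC are the reverse strand of ACGTG and GCGTG.
P4ha1, chr10:59323046-59323345, plus strand, 3 cores: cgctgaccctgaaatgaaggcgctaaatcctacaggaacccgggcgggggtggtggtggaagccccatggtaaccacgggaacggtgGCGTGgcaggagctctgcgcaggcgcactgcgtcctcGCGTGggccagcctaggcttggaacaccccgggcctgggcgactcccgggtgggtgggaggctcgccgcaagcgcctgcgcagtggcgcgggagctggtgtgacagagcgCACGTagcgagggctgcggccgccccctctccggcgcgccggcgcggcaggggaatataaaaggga
P4ha2, chr11:54100674-54100973, plus strand, 4 cores: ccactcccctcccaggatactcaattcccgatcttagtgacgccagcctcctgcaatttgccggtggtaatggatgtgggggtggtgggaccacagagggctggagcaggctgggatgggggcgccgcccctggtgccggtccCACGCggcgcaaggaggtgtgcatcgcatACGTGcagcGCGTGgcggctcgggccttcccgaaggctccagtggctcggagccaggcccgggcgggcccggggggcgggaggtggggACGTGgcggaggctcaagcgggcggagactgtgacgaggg
Hk2, chr6:82774405-82774704, minus strand, 2 cores: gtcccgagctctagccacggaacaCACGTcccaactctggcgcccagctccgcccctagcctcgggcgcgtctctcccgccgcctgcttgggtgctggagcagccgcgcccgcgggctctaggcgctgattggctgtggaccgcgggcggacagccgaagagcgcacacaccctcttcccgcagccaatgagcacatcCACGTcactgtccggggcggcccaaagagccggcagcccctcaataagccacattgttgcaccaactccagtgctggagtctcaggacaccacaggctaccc
Slc16a3, chr11:120948817-120949116, plus strand, 2 cores: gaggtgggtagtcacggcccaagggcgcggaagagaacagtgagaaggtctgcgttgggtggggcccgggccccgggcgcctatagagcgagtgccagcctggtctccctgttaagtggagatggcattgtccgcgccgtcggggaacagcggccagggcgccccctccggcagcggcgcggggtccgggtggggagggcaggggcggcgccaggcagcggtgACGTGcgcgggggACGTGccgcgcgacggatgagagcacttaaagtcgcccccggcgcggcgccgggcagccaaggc
Adm, chr7:110627407-110627706, plus strand, 2 cores: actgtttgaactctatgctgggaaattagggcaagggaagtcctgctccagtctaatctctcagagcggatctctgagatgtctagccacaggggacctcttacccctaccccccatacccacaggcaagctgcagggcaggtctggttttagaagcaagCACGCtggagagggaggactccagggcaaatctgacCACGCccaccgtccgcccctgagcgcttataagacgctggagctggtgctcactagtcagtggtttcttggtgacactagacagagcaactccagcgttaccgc
Egln3, chr12:54203825-54204124, minus strand, 1 core: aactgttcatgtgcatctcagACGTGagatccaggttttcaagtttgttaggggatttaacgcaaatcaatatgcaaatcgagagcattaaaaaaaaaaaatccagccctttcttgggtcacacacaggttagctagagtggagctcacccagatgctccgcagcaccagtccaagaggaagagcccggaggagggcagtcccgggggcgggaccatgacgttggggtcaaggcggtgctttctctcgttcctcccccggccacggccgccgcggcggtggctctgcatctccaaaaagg

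Gene-assigned reads numbered 22.4 M to 33.7 M in each library, with a median of 26.8 M. A level of 3 reads, taken as the lowest that counts as detected, corresponded to 0.0917 to 0.146 CPM, which covers counting error only. CPM is the read count scaled to an effective library size in M reads, and fold changes are given as log2 of (CPM + 1) throughout, a scale that understates the change of genes under a few CPM. Of the 6 epithelial markers, Epcam, Cdh1, Krt8 and Krt18 lay between 49.9 and 4104 CPM in every sample. The keratins Krt14 (7.99 to 2694 CPM) and Krt5 (0 to 974 CPM, median 0.901) reached much lower values. Markers of other cell types were mixed. Ptprc, Adgre1 and Cd3e of the 5 leukocyte markers, Kdr and Tek of the 4 endothelial, Adipoq and Plin1 of the 3 adipocyte and Lum and Thy1 of the 8 fibroblast markers stayed at or below 0.297 CPM in every sample. Others of the same lists were present, with Csf1r at up to 530 CPM, Cd68 at up to 79.4, Cdh5 at up to 35.0 and Fabp4 at up to 23.6. The leukocyte markers summed to 292 to 533 CPM in dm/fl and to 1.27 to 217 CPM in the other 6 lines. The 8 fibroblast markers summed to 79.1 to 779 CPM in ΔC/fl and 72 to 554 CPM in dm/fl, against 5.58 to 146 CPM in the other 5 lines. In dm/fl their sum was lower with TGFβ (105 to 142 CPM) than without (332 to 554 CPM). In the same line the endothelial sum was 0.186 to 0.287 CPM without and 34.1 to 35.2 CPM with TGFβ, and the adipocyte sum 10.1 to 23.6 CPM without and 0.460 to 0.935 CPM with it. The part of these markers in the results for ΔC/fl and dm/fl was not tested. In the Wnt3a experiment the 2 replicates differed over 2-fold in 52.0% of genes for untreated dm/fl and in 41.0% for treated dm/- cells, and in at most 23.5% for any other condition of the series.

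Levels per kilobase of exon, as medians over the untreated samples of both experiments, were highest for 4 glycolytic enzymes. The pyruvate kinase Pkm came first with a median of 494 CPM per kb, followed by the lactate dehydrogenase Ldha (447), the triose phosphate isomerase Tpi1 (255) and the aldolase Aldoa (240). Among the other hypoxia genes, the mTOR inhibitor Ddit4 (139 CPM per kb) and the stress-induced gene Ndrg1 (82.6) ranked highest. Lowest were Slc2a3, Slc16a3, Adm and Aldoc, each with a median of 0.316 CPM per kb or less. Pgk1, Pgam1 and Gapdh, the glyceraldehyde phosphate dehydrogenase that was not among the 33, have processed pseudogenes elsewhere in the genome, and reads were kept by the authors only with a unique position. Gapdh, normally among the most abundant transcripts, had 0.818 to 5.88 CPM in the 28 samples of the TGFβ experiment. Levels of Pgk1 and Pgam1, and of Eno1, Ldha and Tpi1, which also have such copies, are therefore uncertain. In bulk RNA, fewer cells that express a gene and less of its RNA per cell cannot be told apart.

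**Figure D1:**
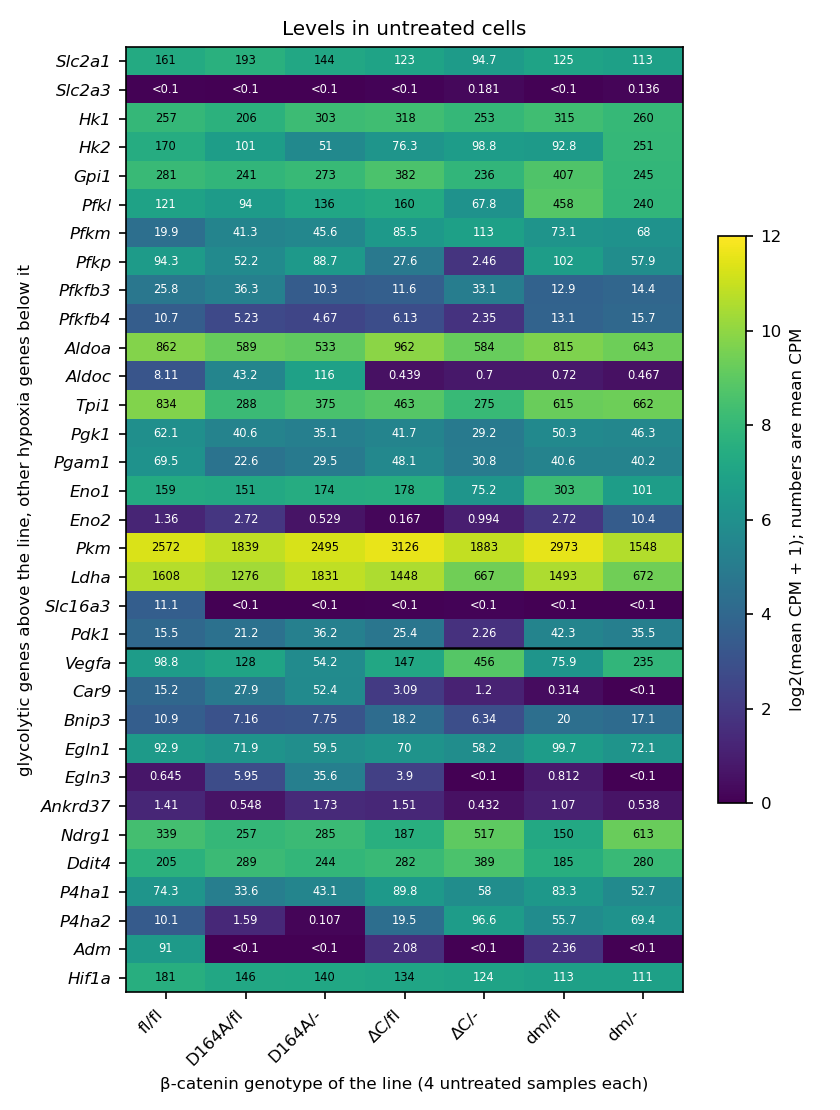
Mean CPM of the 33 genes in untreated cells of the 7 lines (4 samples each). Rows are genes, columns are lines, colour is log2(mean CPM + 1) from 0 to 12, and the number in each cell is the mean CPM. Pkm and Ldha were high in every line, while Adm and Slc16a3 were above 3 CPM in fl/fl only.

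Several steps of the pathway are served by isozymes, and their shares differed by line. Shares below are means of 4 untreated samples, per kilobase of exon. Hk2, the inducible hexokinase, made up 50.4% ± 4.07 (SD) of the 2 hexokinases in dm/-, 40.7% ± 9.16 in fl/fl and 15.4% ± 5.68 in D164A/-, where the housekeeping Hk1 took the rest. Among the 3 phosphofructokinases, the liver type Pfkl held the largest share in 6 of 7 lines. In ΔC/- the muscle type Pfkm held 68.0% ± 11.1, against 10.4% ± 1.53 in fl/fl, and the platelet type Pfkp only 1.12% ± 0.266, against 37.2% ± 6.94 in fl/fl. The brain aldolase Aldoc reached 16.1% ± 7.94 of the 2 aldolases in D164A/- and 4.10% ± 3.00 in D164A/fl, and 0.11% or less in the ΔC and dm lines. The neuronal enolase Eno2 reached 9.27% ± 4.13 of the 2 enolases in dm/- and at most 1.85% elsewhere. Slc2a3, the neuronal glucose transporter, never passed 0.452 CPM beside 51.7 to 312 CPM of Slc2a1, the ubiquitous transporter.

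The range of a gene over the 7 lines was taken as the highest over the lowest mean of untreated cells. It was under 4-fold for 10 glycolytic genes and for 5 other hypoxia genes. There was no gap at this limit, with Pfkfb3 at 3.51-fold, Ankrd37 at 4.00-fold, Eno1 at 4.02-fold and Ndrg1 at 4.08-fold. Hk1 varied least among the glycolytic genes (1.55-fold, 206 to 318 CPM), and Gpi1, Aldoa, Pkm, Slc2a1 and Pgk1 stayed within 2.13-fold. In the other group Hif1a varied least (1.63-fold), followed by the oxygen sensor Egln1 (1.71-fold). Among the genes with a ratio Aldoc varied most (263-fold), followed by Eno2 (62.4-fold), Pfkp (41.4-fold) and Pdk1 (18.7-fold). The ratio of Eno2 rests on a mean of 0.167 CPM in ΔC/fl, barely above the limit of 3 reads. For Slc2a3, Slc16a3, Car9, Egln3, P4ha2 and Adm no ratio is given. The mean of at least 1 line did not pass 0.146 CPM for these, the highest limit of 3 reads in any library.

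Each of the 6 mutant lines was then compared with fl/fl in untreated cells, with the same fl/fl samples in all 6 comparisons. Of 192 gene and line pairs, 63 were called (adjusted p of at most 0.05 and at least 2-fold), 21 higher and 42 lower than fl/fl, which is 39 of 120 glycolytic pairs and 24 of 72 pairs of the other hypoxia genes. Over all genes tested 18.9% of such pairs were called. By line, all genes were called at 16.2% in D164A/fl, 18.9% in D164A/-, 16.6% in ΔC/fl, 23.0% in ΔC/-, 21.1% in dm/fl and 17.9% in dm/-.

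Adm and Slc16a3 were lower than in fl/fl in all 6 lines. Adm, the vasodilator peptide adrenomedullin, measured 68.1, 96.5, 69.3 and 130 CPM in untreated fl/fl cells. The next highest line was dm/fl, with 2.08, 1.53, 4.76 and 1.05 CPM, and in D164A/fl, D164A/- and dm/- no sample passed 0.0422 CPM. The difference from fl/fl lay between −6.46 and −4.84 on the log2 scale. Slc16a3, the lactate exporter, measured 3.78, 21.6, 13.8 and 5.10 CPM in untreated fl/fl cells, 1244 reads in all. In untreated D164A/fl, D164A/- and dm/- cells it had 0 reads, so that fl/fl was at least 108-fold, 95.2-fold and 103-fold higher against a floor of 3 reads per library. In ΔC/fl, ΔC/- and dm/fl it had 7, 10 and 3 reads over 4 samples. No untreated sample of another line overlapped fl/fl for either gene. How many of all genes did so was not counted.

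Car9, the carbonic anhydrase at the cell surface that is a standard hypoxia marker, was highest in D164A/-. It measured 30.5, 41.3, 60.9 and 77.0 CPM there, above fl/fl (11.6, 17.5, 22.1 and 9.66 CPM) by 1.70 ± 0.23 (SE, adjusted p = 2.66e-07). In ΔC/fl, ΔC/-, dm/fl and dm/- it was lower by 1.96, 2.85, 3.58 and 3.93, and in dm/- 2 reads were seen in 4 untreated samples. Egln3, the most hypoxia-responsive of the prolyl hydroxylases, measured 45.2, 47.2, 31.4 and 18.7 CPM in D164A/-, 4.43 ± 0.30 above fl/fl on the log2 scale. It had 0 reads in 4 untreated ΔC/- samples, so that D164A/- was at least 324-fold higher. It was also higher than fl/fl in D164A/fl (2.10 ± 0.30) and ΔC/fl (1.57 ± 0.30). The order of Egln3 levels therefore differed from that of Adm, which was highest in fl/fl.

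The collagen prolyl hydroxylases P4ha1 and P4ha2 differed in their spread over lines. P4ha2 was lower than fl/fl in D164A/fl (by 2.08 on the log2 scale) and D164A/- (3.29) and higher in ΔC/- (3.01), dm/fl (2.25) and dm/- (2.70). Its untreated values were 157, 125, 52.5 and 51.8 CPM in ΔC/- and 0, 0.114, 0.146 and 0.169 CPM in D164A/-, with fl/fl between them at 12.1, 11.4, 10.5 and 6.25 CPM. P4ha1 stayed between 33.6 and 89.8 CPM in the line means and passed the 2-fold threshold only in D164A/fl (−1.03 ± 0.21). The angiogenic factor Vegfa was higher than fl/fl in ΔC/- (2.20 ± 0.32) and dm/- (1.44 ± 0.32), with 823, 506, 269 and 225 CPM in ΔC/- and 268, 221, 232 and 219 CPM in dm/-. Ndrg1 was lower in dm/fl (−1.15) and Ddit4 higher in ΔC/- (1.21). The mitophagy receptor Bnip3, Egln1, the ankyrin repeat gene Ankrd37 and Hif1a were called in no line. Hif1a differed most in dm/fl, by −1.06, with an adjusted p of 0.0752.

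Among the glycolytic genes, Pfkm was higher than fl/fl in 5 lines, from 1.13 in D164A/- to 2.44 in ΔC/-. Its untreated values were 18.8, 27.8, 17.3 and 15.8 CPM in fl/fl and 123, 124, 69.8 and 136 CPM in ΔC/-. Pfkp was lower in ΔC/fl (−1.78) and ΔC/- (−4.77), where it measured 2.64, 2.30, 1.78 and 3.121 CPM. Pdk1, which blocks the entry of pyruvate into the citric acid cycle, was lower in ΔC/- (−2.30) and higher in D164A/- (1.26), dm/fl (1.44) and dm/- (1.204). In ΔC/- it measured 1.94, 1.70, 1.41 and 3.99 CPM, below every sample of the other lines in untreated cells. Eno2 was higher in dm/- (2.29), with 10.5, 11.7, 11.7 and 7.75 CPM. Aldoc was higher in D164A/- (3.83 ± 0.36) and lower in the 4 ΔC and dm lines, by 2.22 to 2.51. In D164A/fl the difference of Aldoc was 1.57 ± 0.36 (adjusted p = 0.000802) from 4.10, 12.9, 36.2 and 120 CPM, against 10.7, 11.8, 7.85 and 2.11 CPM in fl/fl. The untreated cells of the TGFβ experiment alone gave −0.54 for it (adjusted p = 0.551), so the higher level rests on the Wnt3a experiment.

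Further glycolytic genes were called lower in 1 to 3 lines each. Hk2 was lower in D164A/- (−1.73 ± 0.22) and ΔC/fl (−1.12 ± 0.22). Pgam1 and Tpi1 were lower in D164A/fl, D164A/- and ΔC/-, by 1.13 to 1.72. Ldha was lower in ΔC/- (−1.59 ± 0.45) and dm/- (−1.40 ± 0.45), Pgk1 in ΔC/- (−1.10 ± 0.28), and the phosphofructokinase regulators Pfkfb3 and Pfkfb4 in 2 lines each. Slc2a1, Hk1, Gpi1, Pfkl, Aldoa, Eno1 and Pkm were called in none. For Pkm the estimates lay between −0.91 and 0.16.

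**Figure D2:**
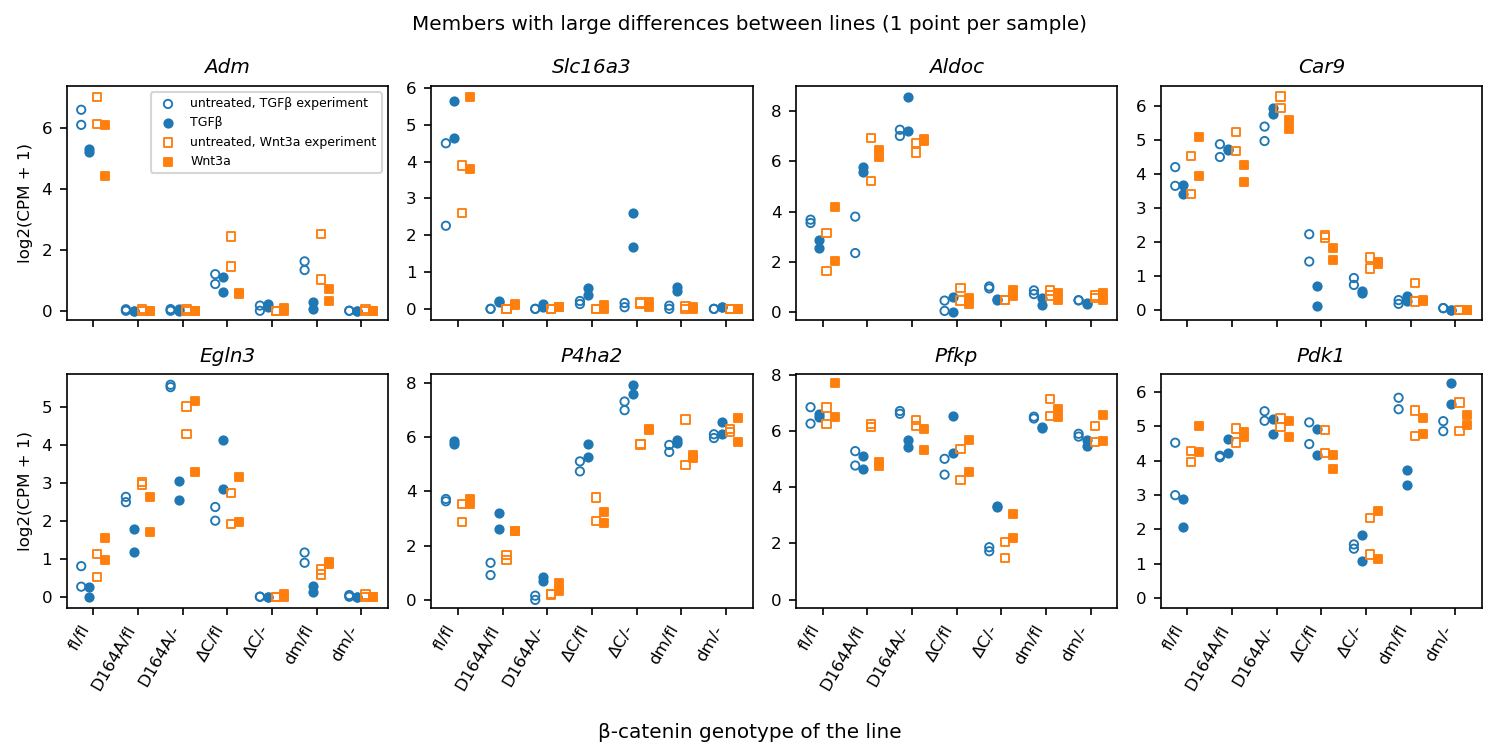
Log2(CPM + 1) of 8 genes in all 56 samples, 1 point per sample, by line on the horizontal axis. Circles are the TGFβ and squares the Wnt3a experiment, filled when treated. Adm and Slc16a3 stood out in fl/fl, Egln3 and Car9 in D164A/-, and Pfkp and Pdk1 were lowest in ΔC/-.

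The loss of the second allele was examined by comparing each "-" line with its floxed partner in untreated cells. Of 96 pairs 23 were called, 10 higher and 13 lower in the deleted line, with 11 of 60 glycolytic pairs and 12 of 36 pairs of the other hypoxia genes. All genes were called at 9.45% for D164A, 12.2% for ΔC and 18.3% for dm. No gene was called in the same direction in all 3 allele pairs. Vegfa was higher in the deleted line for ΔC (1.72 ± 0.32) and dm (1.77 ± 0.32) and lower for D164A (−1.29 ± 0.32). Ndrg1 was likewise higher for ΔC (1.48) and dm (2.04), and Adm lower for both (−1.45 and −1.62). Egln3 was higher for D164A (2.33 ± 0.30) and lower for ΔC (−2.26 ± 0.30). P4ha2 was lower for D164A (−1.203) and higher for ΔC (2.31).

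In the glycolytic group the deleted ΔC line had less Pdk1 (−3.04 ± 0.33) and Pfkp (−2.99 ± 0.30) than its partner. The deleted D164A line had more Aldoc (2.26 ± 0.36) and less Pfkfb3 (−1.62) and Eno2 (−1.25). The deleted dm line had more Hk2 (1.43 ± 0.22) and Eno2 (1.70 ± 0.23). Ldha was lower in the deleted line for ΔC (−1.30 ± 0.45) and dm (−1.29 ± 0.45). Leaving out 1 sample moved this change between −1.89 and −0.71 for ΔC and between −1.73 and −0.85 for dm. Both ranges lay on both sides of the 2-fold threshold. Whether these differences follow from the deletion or from the derivation of the sorted lines cannot be told apart.

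TGFβ raised 8 of the 32 genes tested on average over the 7 lines (adjusted p of at most 0.05) and lowered 2. None reached 2-fold on average, where 4.88% of all genes did. Of all genes 28.8% passed the adjusted p, 14.6% upward and 14.2% downward. The 4 glycolytic genes that rose were Hk2 (0.74 ± 0.12), Slc16a3 (0.71 ± 0.17), Pfkfb4 (0.67 ± 0.22) and Pfkfb3 (0.49 ± 0.18), and none fell. In the other group Vegfa (0.99 ± 0.17), P4ha2 (0.91 ± 0.13), P4ha1 (0.88 ± 0.11) and Ddit4 (0.70 ± 0.22) rose, and Egln3 (−0.54 ± 0.16) and Adm (−0.36 ± 0.14) fell. The median over each group was 0.13, against −0.02 for all genes. The enzyme genes Gpi1, Aldoa, Tpi1, Eno1, Pkm and Ldha lay between −0.32 and 0.14 and did not pass. Pgam1 was higher with TGFβ in 7 of 7 lines (0.12 to 0.89) and Pgk1 lower in 6 of 7, and neither passed on average. edgeR on the recovered reads gave an adjusted p of 1 for Egln3 and Adm, and without line dm/- the mean of Pfkfb3 was −0.02. Without line D164A/- the mean of Egln3 was −0.17 (adjusted p = 0.528). The mean of Adm was −0.24 without fl/fl and −0.20 without dm/fl, and neither passed. In fits that left out 1 sample or line, the pass was lost in 25 of 35 for Adm and in 19 of 35 for Pfkfb3. Calls were also lost for Slc16a3 without ΔC/- (0.48), for Ddit4 without D164A/fl (0.61), and for Pfkfb4 without D164A/fl (0.57), D164A/- (0.55), ΔC/fl (0.55) or replicate 2 of TGFβ-treated D164A/- cells (0.58).

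Both collagen hydroxylases rose on average. P4ha2 had both treated values above both untreated values in 7 of 7 lines, which held for 2.47% of all genes. It rose most in fl/fl, from 12.1 and 11.4 CPM to 52.9 and 56.8 CPM (2.13 ± 0.35, adjusted p = 4.83e-05), and in D164A/fl from 0.884 and 1.58 to 5.05 and 8.15 CPM (1.76 ± 0.35, adjusted p = 0.00153). In ΔC/-, where it was already high, it measured 157 and 125 CPM without and 192 and 240 CPM with TGFβ. P4ha1 was separate in 5 of 7 lines, as 11.7% of all genes were in at least 5. Its largest change was in D164A/-, from 33.5 and 46.4 to 129 and 134 CPM (1.71 ± 0.30, adjusted p = 0.000154). It was also called in D164A/fl (1.01) and ΔC/fl (1.06), where all genes were called at 3.38% and 7.74%. Leaving out 1 sample moved the change between 0.86 and 1.16 in D164A/fl and between 0.92 and 1.19 in ΔC/fl, on both sides of the 2-fold threshold. In dm/fl its values were 95.9 and 93.8 CPM untreated and 96.3 and 79.3 CPM treated.

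Vegfa responded by line. It rose from 182 and 75.5 to 898 and 807 CPM in fl/fl (2.85 ± 0.45, adjusted p = 2.43e-05) and from 72.5 and 63.0 to 301 and 184 CPM in dm/fl (1.78 ± 0.45, adjusted p = 0.00491), where 6.25% and 10.3% of all genes were called. In dm/- it went the other way without passing the test, from 268 and 221 to 169 and 173 CPM. Ddit4 was separate upward in 5 of 7 lines but was called in no single line. In ΔC/fl, where the groups overlapped, it measured 323 and 374 CPM without and 372 and 285 CPM with TGFβ.

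Egln3 fell in D164A/- from 45.2 and 47.2 to 7.23 and 4.84 CPM (−2.77 ± 0.42, adjusted p = 1.96e-05). In ΔC/fl the values were 4.16 and 3.02 CPM untreated and 6.18 and 16.6 CPM treated (1.31 ± 0.42, adjusted p = 0.0410), a call that edgeR did not make (adjusted p = 0.179). Adm fell in dm/fl from 2.08 and 1.53 to 0.218 and 0.0329 CPM (−1.32 ± 0.36). In fl/fl it measured 68.1 and 96.5 CPM without and 35.9 and 39.1 CPM with TGFβ and was not called. Car9 fell in ΔC/fl from 1.68 and 3.68 to 0.632 and 0.0851 CPM (−1.41), Bnip3 fell in dm/fl from 27.998 and 19.2 to 9.50 and 6.61 CPM (−1.44), and Ndrg1 rose in ΔC/fl from 234 and 132 to 950 and 350 CPM (1.71). The treated Ndrg1 values lay above both untreated values and far apart from each other.

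Of the glycolytic genes, Hk2 responded in the largest number of lines. It rose in fl/fl from 242 and 141 to 541 and 379 CPM (1.29 ± 0.31, adjusted p = 0.00518) and in ΔC/- from 131 and 96.2 to 358 and 326 CPM (1.60 ± 0.31, adjusted p = 0.000604). Smaller increases passed the adjusted p in dm/fl (0.92) and dm/- (0.97). In the D164A lines treated and untreated values were 134 and 117 against 145 and 110 CPM for D164A/fl, and 21.7 and 33.8 against 34.0 and 42.3 CPM for D164A/-.

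Slc16a3 was the other gene with both treated values above both untreated values in 7 of 7 lines. In ΔC/- it rose from 0.116 and 0.0315 to 2.20 and 5.10 CPM (2.04 ± 0.45, adjusted p = 0.00235). In fl/fl it measured 3.78 and 21.6 CPM without and 24.1 and 48.8 CPM with TGFβ (1.76 ± 0.45, adjusted p = 0.00875), where edgeR gave an adjusted p of 0.314 and leaving out 1 sample moved the change between 0.64 and 2.89. In the other 5 lines no treated value passed 0.499 CPM, so a rise there means a few reads more.

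Pfkfb3, Aldoc, Pfkp, Pdk1 and Eno2 were each called in 1 line. Pfkfb3, which makes the main activator of phosphofructokinase, rose in dm/- from 14.5 and 15.3 to 165 and 201 CPM (3.52 ± 0.48, adjusted p = 2.66e-06), the largest change of any member, where 6.12% of all genes were called. In the other 6 lines its treated values lay between 10.9 and 39.5 CPM. Aldoc rose in D164A/fl from 4.10 and 12.9 to 46.0 and 53.3 CPM (2.58 ± 0.51, adjusted p = 0.00117). The untreated D164A/fl cells of the Wnt3a experiment had 36.2 and 120 CPM, so the treated values lay within the range of untreated cells of that line. Pfkp rose in ΔC/- from 2.64 and 2.30 to 8.72 and 9.16 CPM (1.52 ± 0.43). Pdk1 fell in dm/fl from 56.1 and 44.3 to 12.3 and 8.78 CPM (−2.15 ± 0.46, adjusted p = 0.000919), and Eno2 in the same line from 3.08 and 3.15 to 0.935 and 0.690 CPM (−1.19 ± 0.33).

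In all, 22 of 224 gene and line pairs were called, 16 higher and 6 lower, in 15 of the 32 genes. Glycolytic genes made up 9 of 140 pairs and the other hypoxia genes 13 of 84, beside 6.35% of pairs over all genes, with 4.06% in D164A/- and 6.55% in ΔC/-. The count of 22 was 10 when each comparison was fitted on its own 4 samples, and 35 on the 28 samples of the TGFβ experiment alone.

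**Figure D3:**
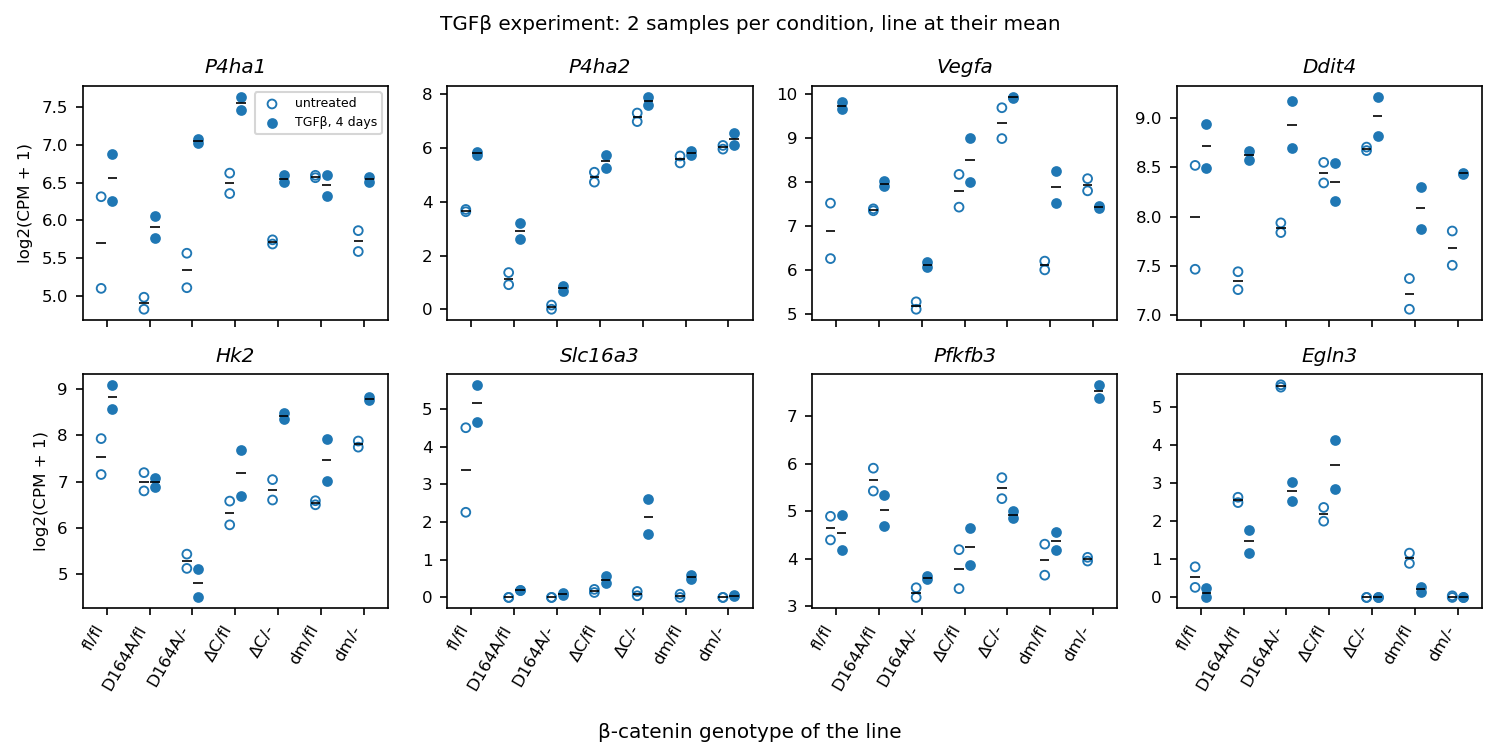
Log2(CPM + 1) of 8 genes in the 28 samples of the TGFβ experiment, with 2 untreated (open) and 2 treated (filled) samples per line and a bar at their mean. P4ha2 and Slc16a3 were higher with TGFβ in 7 of 7 lines, and Pfkfb3 rose in dm/- to 165 and 201 CPM.

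The response to TGFβ differed among the lines for 11 of 32 genes (F-test of 6 interaction contrasts), against 18.3% of all genes. These were the glycolytic genes Hk2, Pfkp, Pfkfb3, Aldoc and Pdk1 and the hypoxia genes Vegfa, Car9, Bnip3, Egln3, Ndrg1 and P4ha2. The call of Ndrg1 was lost in 20 of 28 fits that left out 1 sample. Egln3 ranged from −2.77 in D164A/- to 1.31 in ΔC/fl, Pfkfb3 from −0.65 to 3.52 in dm/-, and Vegfa from −0.51 in dm/- to 2.85 in fl/fl. For P4ha2 the response was above 0 in every line (0.25 to 2.13) and differed in size. Slc16a3, P4ha1, Eno2 and Adm missed the threshold, with adjusted p of 0.0531, 0.0650, 0.0533 and 0.147.

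Wnt3a changed few of the genes. Of 224 pairs 1 was called, against 0.862% of pairs over all genes. It was Slc2a1 in D164A/fl, which fell from 156 and 263 to 55.8 and 65.7 CPM (−1.72 ± 0.52, adjusted p = 0.0448), where 4.15% of all genes were called. The number of called pairs was 4 without replicate 1 and 16 without replicate 2 of untreated dm/fl cells, and 9 without replicate 2 of Wnt3a-treated fl/fl cells. The call of Slc2a1 was lost with a pseudocount of 0.1 (adjusted p = 0.0517) and in edgeR (adjusted p = 0.0605). On average over the lines 1 gene passed the adjusted p, as did 3.52% of all genes (2.21% higher, 1.31% lower), and none was called at 2-fold, where 0.494% of all genes were. At an unadjusted p under 0.05, 2 of 32 genes passed, beside 10.7% of all genes. The gene was Adm, with −0.57 ± 0.14 (adjusted p = 0.00979). It was lower with Wnt3a in the 3 lines that had it, with 69.3 and 130 CPM untreated against 20.6 and 68.4 CPM treated in fl/fl. The corresponding values were 1.75 and 4.44 against 0.456 and 0.514 CPM in ΔC/fl, and 4.76 and 1.05 against 0.646 and 0.258 CPM in dm/fl. The 2 groups were separate in each of the 3 lines, and edgeR gave an adjusted p of 1 for the mean.

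The 95% intervals of the mean Wnt3a response were within −0.70 and 0.82 for all other members. For genes near 0 CPM, such as Slc16a3, Egln3, Aldoc and Ankrd37, log2(CPM + 1) can hardly move, and their intervals do not limit the fold change of the CPM. Glycolytic genes had a median of 0.05 and the other hypoxia genes of −0.03. The response differed among lines for 0 of 32 genes by the limma F-test, where 2.39% of all genes did, and 4 of 32 had an unadjusted p under 0.05, beside 8.16% of all genes. Precision was lower here than in the TGFβ experiment. The median difference between the replicates of a condition was 0.72 on the log2 scale for the glycolytic genes, 0.34 for the other hypoxia genes and 0.44 for all genes, against 0.27, 0.18 and 0.19 in the TGFβ experiment.

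The glycolytic genes of a sample often deviated in the same direction. In untreated ΔC/- cells of the Wnt3a experiment, Pkm measured 653 and 4669 CPM and Ldha 316 and 1645 CPM in the 2 replicates, and 16 of 20 glycolytic genes were higher in the second. In untreated dm/fl cells 16 of 20 were lower in it, with Pfkl at 1217 and 165 CPM. A sample's deviations from the mean of all samples correlated with the GC content of transcripts (13089 genes) at an absolute Spearman rho over 0.4 in 11 of 28 samples of the Wnt3a experiment and in 1 of 28 of the TGFβ experiment. The part of GC content in the glycolytic values was not tested. With a lowess correction for GC, 23 pairs were called for TGFβ and 3 for Wnt3a.

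**Figure D4:**
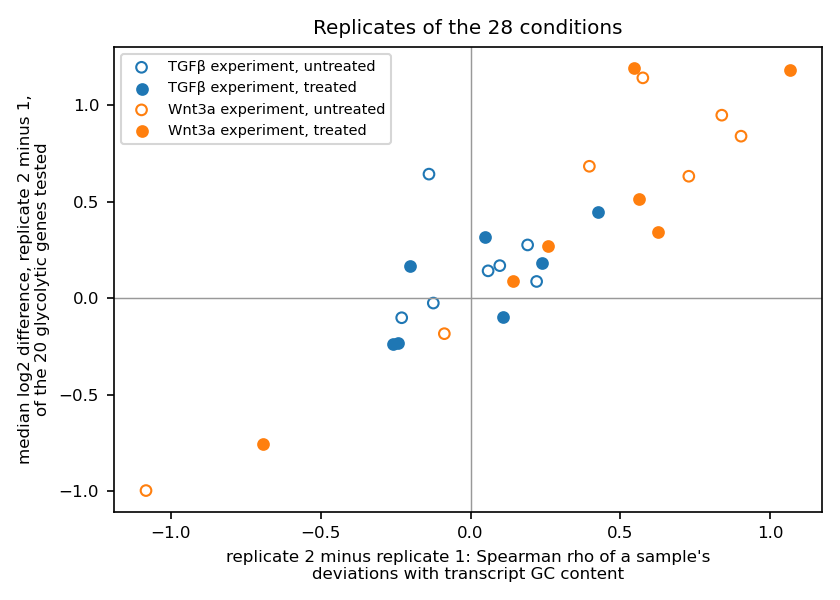
Median log2 difference of the 20 tested glycolytic genes between the 2 replicates of each of the 28 conditions (vertical), against the difference of the replicates in their Spearman rho with transcript GC content (horizontal). Orange points of the Wnt3a experiment spread from −0.996 to 1.19 and blue points of the TGFβ experiment from −0.24 to 0.64.

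Untreated cells of the 2 experiments, which differ in days of culture and in the experiment itself, were compared over the 7 lines. At 2-fold 0 of 32 genes were called in limma, against 1.2% of all genes. By adjusted p 6 passed, beside 15.7% of all genes, and 13 of 32 had an unadjusted p under 0.05, beside 30.8% of all genes. Ldha (−0.82 ± 0.24), Tpi1 (−0.64 ± 0.22), Pgam1 (−0.57 ± 0.18), Pgk1 (−0.49 ± 0.15) and Ankrd37 (−0.31 ± 0.11) were lower in the TGFβ experiment, and Vegfa (0.57 ± 0.17) was higher. Among 35 fits that left out 1 sample or line, the pass was lost in 27 for Ankrd37 and 25 for Tpi1. It was lost in 10 for Pgam1, in 6 each for Ldha and Pgk1 and in 5 for Vegfa. Ldha, for example, measured 335 and 374 CPM in untreated ΔC/- cells of the TGFβ experiment and 316 and 1645 CPM in those of the Wnt3a experiment. Over 13089 genes, the fold changes of the same comparison had a Spearman rho of −0.24 with transcript GC content. Day of culture and experiment cannot be told apart.

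Further genes of both pathways were counted for context, from lists of 27 other glycolysis and 31 other hypoxia genes of which 20 and 28 were tested. With TGFβ 5 of the 20 passed the adjusted p on average, 3 higher and 2 lower, and 9 of the 28, 6 higher and 3 lower, beside the 28.8% of all genes given above. At 2-fold, where 4.88% of all genes were called, Bhlhe40, a transcriptional repressor induced by hypoxia (1.70 ± 0.15), the collagen lysyl hydroxylase Plod2 (1.07 ± 0.28) and the lysyl oxidase Loxl2 (1.02 ± 0.06) rose, and Epas1, which encodes HIF-2α, fell (−1.20 ± 0.16). In single lines 0 to 3 of the 20 and 0 to 5 of the 28 were called. Of all genes, 3.38% (D164A/fl) to 10.3% (dm/fl) were called in a line. By the F-test the response differed among lines for 8 of the 20 and 6 of the 28, beside 18.3% of all genes. Of the genes at 2-fold on average, it did so for Epas1 (adjusted p = 9.15e-06) and Loxl2 (2.43e-14). It missed the threshold for Bhlhe40 (0.0979) and Plod2 (0.693). Bhlhe40 measured 721 and 538 CPM without and 1701 and 1194 CPM with TGFβ in fl/fl. In D164A/fl it measured 61.8 and 83.1 CPM without and 599 and 555 CPM with TGFβ. Plod2 measured 39.9 and 42.7 CPM without and 134 and 164.3 CPM with TGFβ in fl/fl, and in dm/- it measured 26.7 and 41.4 CPM without and 18.2 and 33.9 CPM with TGFβ. Loxl2 was higher with TGFβ by several CPM in fl/fl (0 and 0 to 9.18 and 11.5 CPM) and ΔC/fl (0.120 and 0.0317 to 9.24 and 4.17 CPM).

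Epas1 was lower with TGFβ in fl/fl (33.7 and 36.5 to 4.17 and 5.96 CPM), ΔC/fl (51.7 and 41.6 to 6.37 and 5.74 CPM) and dm/fl (77.3 and 82.9 to 9.63 and 8.58 CPM). In the D164A lines it measured 16.5 and 19.5 CPM without and 23.3 and 28.7 CPM with TGFβ in D164A/fl, and 96.8 and 104 against 175 and 94.8 CPM in D164A/-. Among the other glycolysis genes Pfkfb2 (−0.86 ± 0.16) and the monocarboxylate transporter Slc16a1 (−0.48 ± 0.11) fell, and Bpgm (0.59), Pgm2 (0.52) and Fbp1 (0.43) rose. With Wnt3a 1 of the 20 other glycolysis and 1 of the 28 other hypoxia genes passed the adjusted p on average, beside 3.52% of all genes. They were Slc16a7 (−0.24 ± 0.06) and Bhlhe40 (0.55 ± 0.15).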

How the data were processed

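RNA was measured in 56 samples by stranded poly(A) sequencing. The authors aligned reads to mm10 with STAR, keeping unique hits, and counted those starting in an exon with QuasR. The deposited values are a signal, CPM (counts over an effective library size in M reads), from which whole reads were recovered for 100% of values (tolerance 0.001 reads). Per sample 22.4 M to 33.7 M reads were assigned, so 3 reads were worth 0.0917 to 0.146 CPM, for counting error only. With limma 3.58.1 (limma-trend, R 4.3.3), log2(CPM + 1) was fitted on all 56 samples with 1 mean for each of 28 conditions, for the 13754 genes that reached 1 CPM in 2 or more samples. P-values were Benjamini-Hochberg adjusted over all genes, and a call needed an adjusted p of at most 0.05 and at least 2-fold. Intervals are 95% intervals of limma. F-tests used the adjusted p only.

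Alternatives were edgeR 4.0.16 on whole reads, a pseudocount of 0.1, no filter, a 1.5-fold threshold, fewer samples in the fit, a replicate block, a lowess correction for transcript GC (span 0.3, GENCODE vM21), and leaving out each sample or line. The fit was tested on simulated data with the same dispersion for every gene. For TGFβ in fl/fl, 25% of genes changed 2-fold and 98% of those changed 4-fold passed the adjusted p in the right direction. All 33 listed genes are named, with sample values for those that changed most and for isozymes. The members and lists were chosen with earlier results of these data known. Figures used matplotlib 3.10.9.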

Additional observations from a re-analysis of the deposited data

Results flagged for a closer look

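For 11 genes the response to TGFβ differed among the 7 lines by the F-test of limma, with 2 samples per condition. The adjusted p was 0.000203 for Pfkfb3 (line responses from −0.65 to 3.52 on the log2 scale) and 0.000205 for Egln3 (−2.77 to 1.31). It was 0.00463 for Vegfa (−0.51 to 2.85), 0.00522 for Hk2 (−0.47 to 1.60) and 0.00630 for Aldoc (−0.90 to 2.58), for which edgeR gave 0.0688. It was 0.00861 for Pdk1 (−2.15 to 0.95), 0.0136 for Pfkp (−1.11 to 1.52) and 0.0174 for P4ha2 (0.25 to 2.13). For Bnip3 (−1.44 to 0.47) it was 0.0268, for Car9 (−1.41 to 0.67) 0.0331 and for Ndrg1 (−0.59 to 1.71) 0.0439. Among 28 fits without 1 sample, the call was lost in 20 for Ndrg1 and in 5 each for Bnip3 and Car9. With the correction for GC content Car9 had an adjusted p of 0.0678.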

How the results depend on the processing

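For TGFβ in fl/fl, with 2 samples against 2, 25% of simulated 2-fold changes passed the adjusted p in the right direction. For the mean over 7 lines 100% did. The 2-fold threshold of a call was not applied. Unlike these data, the simulation had the same change in every line, the same dispersion for every gene and no GC differences between samples. The 22 gene and line pairs called for TGFβ became 10 in fits of the compared samples alone, 35 with the 28 samples of that experiment (chosen after seeing the data), and 18 to 23 when 1 sample was left out. The 1 pair called for Wnt3a became 0 with a pseudocount of 0.1, no filter, edgeR, the compared samples alone or that experiment's samples alone, 3 with the GC correction, and 0 to 16 when 1 sample was left out. The 16 came without replicate 2 of untreated dm/fl cells, and 9 without replicate 2 of Wnt3a-treated fl/fl cells. The mean TGFβ response gave 0 calls, 2 with a pseudocount of 0.1, 2 in edgeR, 7 at 1.5-fold, and 0 to 2 when a sample or line was left out. The TGFβ response differed among lines for 11 genes, for 17 with the compared samples alone, and for 9 to 13 with a sample left out. For Wnt3a it differed for 0 genes, 1 with the GC correction and 0 to 7 with a sample left out (7 without replicate 2 of untreated dm/fl cells). The experiments differed for 0 genes and for 2 at 1.5-fold. Counts against fl/fl (63) ranged from 61 to 69 and those of deleted against floxed lines (23) from 20 to 29 with a sample left out. Direction reversed for Pfkfb3 without line dm/- (mean TGFβ response −0.020, adjusted p = 0.962, and up to 0.67 without another sample or line) and for Aldoc in D164A/fl against fl/fl with the untreated cells of the TGFβ experiment (−0.54, adjusted p = 0.551). The cause was not tested.

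Same-numbered samples deviated together in 12 of 14 comparisons (correlations 0.33 to 0.93) but not in ΔC/- for TGFβ (−0.20) or dm/fl for Wnt3a (−0.07). Since not every correlation was over 0.1 and no label ties the numbers, they were not taken as pairs. A replicate block gave 34 called pairs for TGFβ, 6 for Wnt3a, and 17 and 3 genes whose response differed among lines. The block with the GC correction gave 34, 7, 24 and 5. Crossing the numbers of ΔC/- (chosen after seeing the data) gave 34 pairs and 17 genes.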
